A study of Homo sapiens with 4 samples.

Results

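The genes described here are the 7 genes of creatine uptake, creatine synthesis and the creatine kinases SLC6A8, GATM, GAMT, CKB, CKMT1A, CKMT1B and CKMT2, out of 57992 genes in the count table. They were found by gene symbol, and the group was chosen because SLC6A8 and CKB were among the largest rises in the same comparison that is described below. Their fold changes, intervals and calls come from the fit over all genes. They are therefore given as a description and not as support for the choice of the group. Messenger RNA was sequenced in 4 libraries of MOLM13, a cell line from a human acute myeloid leukaemia (AML), in a derivative that the labels mark as venetoclax-resistant (VEN-R). The labels give 2 libraries the genotype PRMT9 knockdown, from a hairpin RNA against PRMT9 (PRMT9 shRNA), and 2 the genotype WT with a control hairpin (control shRNA). All 4 were induced with doxycycline, and no library without doxycycline or without a hairpin was analysed here. The labels do not say how many hairpin sequences or cultures the libraries of a group stand for, so p-values measure only the spread between these libraries.

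Creatine stores high-energy phosphate. The arginine:glycine amidinotransferase GATM joins arginine and glycine to guanidinoacetate in mitochondria, and the methyltransferase GAMT turns this into creatine with a methyl group from S-adenosylmethionine. SLC6A8 carries creatine into the cell together with sodium and chloride. Creatine kinases then move phosphate between ATP and creatine: CKB, the brain type, works in the cytosol, CKMT1A and CKMT1B encode the ubiquitous mitochondrial enzyme, and CKMT2 encodes the sarcomeric mitochondrial enzyme.

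Total counts were 30764403 and 33845172 in the PRMT9 shRNA libraries, and 30329901 and 28592902 in the control shRNA libraries. PRMT9, a protein arginine methyltransferase and the target of the hairpin, had 81 and 78 counts in PRMT9 shRNA libraries, against 398 and 406 in control shRNA libraries (log2 fold change -2.48, SE 0.12, edgeR quasi-likelihood test, adjusted p = 1.13e-11). Of 15193 tested genes, 68.0% were called changed at an adjusted p below 0.05, 33.4% higher and 34.5% lower, and the median log2 fold change of all tested genes was 0.00096. A call alone therefore sets a gene little apart from the rest. All 17 myeloid markers were detected, 14 of them called higher and 3 lower. In bulk RNA, more cells of a type and more RNA per cell cannot be told apart.

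Both genes that led to the choice of the group have GC-rich starts, as do other members of the group (values below). The stretch before SLC6A8 is shared with its neighbour PNCK, so sequences of SLC6A8 and CKB are shown first. RefSeq (GRCh38.p14) places the start site of SLC6A8 on the plus strand of chromosome X and that of PNCK on the minus strand, 155 bases apart and facing away from each other. The first sequence is everything between these start sites, chrX:153687772-153687925, read on the plus strand, with each GC box (GGGCGG) in capitals. The second is a 30-base stretch upstream of CKB, chr14:103522883-103522912, read on the minus strand, with a TATA box (TATAAA) and a CCAAT box (CCAAT) in capitals. It is kept short because GENCODE places it in the 5′ untranslated region of a longer CKB transcript.
SLC6A8-PNCK: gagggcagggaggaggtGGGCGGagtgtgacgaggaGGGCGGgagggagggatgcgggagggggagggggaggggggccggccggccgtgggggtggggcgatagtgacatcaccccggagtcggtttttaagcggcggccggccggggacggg
CKB: ggaatgaatgggcTATAAAtagccgCCAAT

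The 154 bases between SLC6A8 and PNCK hold 75.3% G and C, and the 30 bases printed for CKB hold 43.3%. Windows of 250 bases before the RefSeq start were found for 6 of the 7 genes and were searched on both strands for 10 short motifs. G and C made up 76.4% of the SLC6A8 window and 70.8% of the CKB window. The GATM window held 72.8%, and the log2 fold change of GATM was 0.54. This window, chr15:45378545-45378794, lies inside GATM as the count table places it (chr15:45361124-45402327). The part of promoter GC content in the rises was not tested. Of the windows of CKMT1A, which had 0 counts, the most GC-rich held 72.0% and 4 GC boxes, and the others held less. The CKMT2 window held 65.6%, and the most GC-rich CKMT1B window held 61.6%. The SLC6A8 window had 4 GC boxes, a motif present in 42.6% of all 35116 promoter windows, and no match to the other motifs searched. The CKB window also had 4 GC boxes, and in addition 2 CCAAT boxes (present in 32.0% of all windows) and 1 TATA box, 69 bases before the start site (present in 10.7%). The GATM window had 3 GC boxes, 1 CCAAT box and 1 hypoxia response element core (ACGTG, present in 18.5%). The window of CKMT2, which had 0 counts, held 1 GC box, 1 CCAAT box and 1 TATA box. Neither the SLC6A8 nor the CKB window held the interferon-stimulated response element core (GAAANNGAA, 6.88% of windows), the amino acid response element core (TGATGNAA, 3.14%), the antioxidant response element core (TGACNNNGC, 10.9%), the core of the oestrogen response element (AGGTCA, 12.1%), the E-box (CACGTG, 6.34%, which contains ACGTG) or the E2F site (TTTGGCGC, 0.55%). These matches describe letters in a window and not bound factors.

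SLC6A8 (ENSG00000130821), the creatine transporter, had 7769 and 8535 counts in PRMT9 shRNA libraries, against 786 and 734 in control shRNA libraries. Per exon length this was 45.6 and 45.7 RPKM with the PRMT9 hairpin, against 4.67 and 4.77 RPKM with the control hairpin. The libraries of a group lay close together and the groups were far apart. The log2 fold change was 3.28 (SE 0.03), or 9.69-fold (95% interval 9.23 to 10.2), and 80 tested genes had a larger one. In level, SLC6A8 stood above 95.2% of tested genes by RPKM in PRMT9 shRNA libraries and above 53.9% in control shRNA libraries. None (0) of 2560 tested genes within 2-fold of its mean level over all libraries had a larger rise. That is a description only, since SLC6A8 was chosen for its rise and the mean includes the PRMT9 shRNA libraries. The count table places the gene at chrX:153688099-153696593 on the plus strand of GRCh38.

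**Figure D1:**
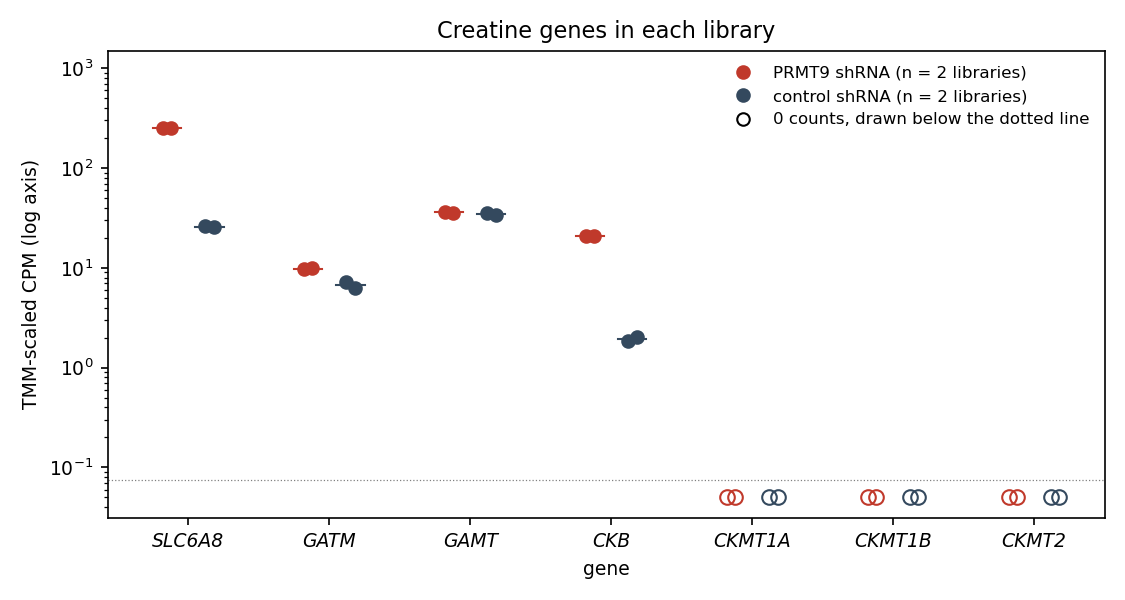
Level in CPM (counts per library total, TMM-scaled, log axis) of the 7 creatine genes in each library; points are libraries, short lines are group means, and open circles mark genes with 0 counts. SLC6A8 averaged 251 CPM in PRMT9 shRNA libraries and 25.9 CPM in control shRNA libraries, and CKMT1A, CKMT1B and CKMT2 had 0 counts in all 4.

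SLC6A10P, a pseudogene copy of SLC6A8, had 0 counts in all 4 libraries. Of the 50-base windows in SLC6A8 transcripts, 9.30% also occurred in another gene, so most of its sequence could be assigned to it alone. SLC16A12, another carrier of creatine, had 0 counts in all 4 libraries as well.

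The synthesis genes had far smaller fold changes. GATM (ENSG00000171766, chr15:45361124-45402327, minus strand), the first enzyme of the pathway, had 299 and 336 counts in PRMT9 shRNA libraries, against 217 and 178 in control shRNA libraries. Its RPKM was 1.45 and 1.49 with the PRMT9 hairpin, against 1.07 and 0.957 with the control hairpin. The groups did not overlap, and the log2 fold change was 0.54 (SE 0.10). Exons of a gene on the opposite strand cover 7.30% of GATM's exon bases, and 5.87% of its 50-base windows occurred elsewhere. The use of strand in counting is not given in the sources used here, so reads from those bases cannot be told apart.

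GAMT (ENSG00000130005, chr19:1397084-1401570, minus strand), which makes creatine from guanidinoacetate, had 1130 and 1214 counts in PRMT9 shRNA libraries, against 1079 and 959 in control shRNA libraries. Its RPKM was 20.9 and 20.5 with the PRMT9 hairpin, against 20.2 and 19.7 with the control hairpin. The libraries did not overlap, but the log2 fold change was 0.06 (SE 0.05, 95% interval -0.05 to 0.16) and GAMT was not called changed. That interval covers differences up to 1.12-fold.

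CKB (ENSG00000166165, chr14:103519659-103523111, minus strand), the cytosolic brain-type kinase, had 640 and 706 counts in PRMT9 shRNA libraries, against 56 and 57 in control shRNA libraries. Its RPKM was 7.73 and 7.79 with the PRMT9 hairpin, against 0.685 and 0.763 with the control hairpin. The groups were again far apart. The log2 fold change was 3.42 (SE 0.11), or 10.7-fold (95% interval 9.13 to 12.6). CKB stood above 67.4% of tested genes by RPKM in PRMT9 shRNA libraries and above 22.4% in control shRNA libraries. Of 3118 tested genes within 2-fold of its mean level over all libraries, 10 had a larger rise, again only a description, since CKB was chosen for its rise. None of its 50-base windows occurred in another gene.

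CKB was the only creatine kinase gene that passed the filter on low counts. CKMT1A, CKMT1B and CKMT2 had 0 counts in every library, which allows at most 0.0884 to 0.106 CPM per library (3 counts, counting error only). CKM, the muscle-type cytosolic kinase, had 5 and 7 counts in PRMT9 shRNA libraries, against 5 and 4 in control shRNA libraries, too few to be tested. CKMT1A and CKMT1B share much of their sequence: 66.7% and 57.9% of their 50-base windows occurred in another gene. The handling of reads with several matches is not given in the sources used here. Among coding genes with over 50 to 90% of windows shared, the class of CKMT1A and CKMT1B, 35.6% had 0 counts in all libraries. The share was 73.4% with over 90 to 95% of windows shared and 83.2% above that, against 10.7% with over 0 to 10% shared, 15.8% with over 10 to 50% and 26.1% with none. SLC25A6, an ADP/ATP carrier gene in the region that the X and Y chromosomes share, also had 0 counts in all 4 libraries. The 0 counts of CKMT1A and CKMT1B are not read as silence, and the part of shared windows in them was not tested. CKMT2 has no shared window. The overlapping antisense gene CKMT2-AS1 had 72 and 84 counts in PRMT9 shRNA libraries, against 72 and 70 in control shRNA libraries, and was not called changed.

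Of the 7 genes, 4 passed the filter on low counts. Of these 4, 3 were called higher (SLC6A8, CKB and GATM) and 2 of them rose by 2-fold or more, a size reached by 9.97% of tested genes. In all 4 the groups did not overlap, as in 83.3% of tested genes. Since the group was chosen on this comparison, nothing is read from these counts.

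**Figure D2:**
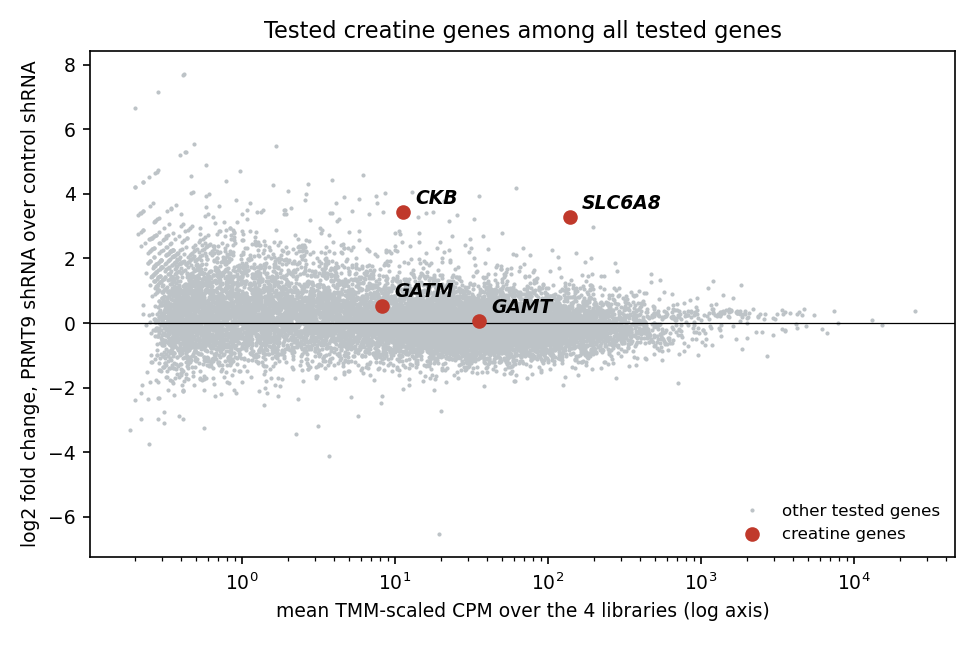
Log2 fold change (PRMT9 shRNA over control shRNA) against mean CPM over the 4 libraries (log axis) for all tested genes (grey) and the 4 tested creatine genes (red). SLC6A8 at 3.28 and CKB at 3.42, both chosen for their rise, lie at the upper edge of genes of their level. GATM at 0.54 and GAMT at 0.06 lie among the bulk.

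The order of the genes per exon length differed between the groups. In PRMT9 shRNA libraries RPKM ran from SLC6A8 through GAMT and CKB to GATM. In control shRNA libraries it ran from GAMT through SLC6A8 and GATM to CKB. Within each group, neighbours in these orders did not overlap, except that the 3 mitochondrial kinase genes were tied at 0. The RPKM of the 7 genes summed to 75.6 ± 0.119 in PRMT9 shRNA libraries and 26.4 ± 0.357 in control shRNA libraries (SD, n = 2 each). SLC6A8 made up 60.4% of that sum with the PRMT9 hairpin and 17.9% with the control hairpin. GAMT made up 27.4% with the PRMT9 hairpin and 75.5% with the control hairpin, although its own level was not called changed.

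Ratios within a library restate these levels without a scaling between libraries. They are no separate support, since SLC6A8 and CKB were chosen for their rise. SLC6A8 was at 2.20 ± 0.0348 times the RPKM of GAMT in PRMT9 shRNA libraries and at 0.237 ± 0.00828 times in control shRNA libraries (SD, n = 2 each). SLC6A8 was at 5.88 ± 0.0171 times CKB in PRMT9 shRNA libraries and at 6.53 ± 0.398 times in control shRNA libraries. GAMT stood at 14.1 ± 0.448 times GATM with the PRMT9 hairpin and at 19.7 ± 1.12 times with the control hairpin.

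**Figure D3:**
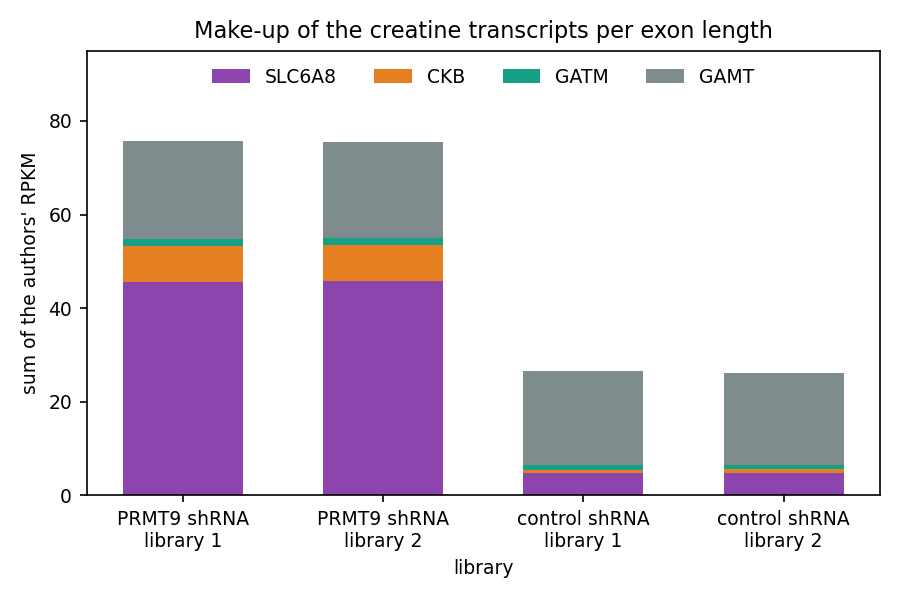
Sum of the authors' RPKM of the creatine genes in each library, stacked by gene (bars start at 0; the 3 mitochondrial kinase genes add 0). The sums are 75.6 on average in PRMT9 shRNA libraries and 26.4 in control shRNA libraries, and the grey GAMT part is nearly the same height in all 4.

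The nearest tested genes on each side were compared with the creatine genes. PNCK, a calcium/calmodulin-dependent kinase gene that starts next to SLC6A8 on the opposite strand, had 278 and 291 counts in PRMT9 shRNA libraries, against 15 and 19 in control shRNA libraries. PNCK rose with a log2 fold change of 3.91 (SE 0.19, edgeR adjusted p = 1.08e-11). By the coordinates of the count table, unlike the RefSeq start sites above, SLC6A8 and PNCK overlap by 912 bases. Their exons share 22 bases. The use of strand in counting is not given, so reads from shared bases cannot be told apart. The part of such reads in the PNCK rise was not tested. On the other side, BCAP31, a membrane protein of the endoplasmic reticulum, had a log2 fold change of -0.00 and was not called. FAM58A, a cyclin-related gene beyond PNCK, fell by 0.92 on the log2 scale.

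Beside CKB, the non-coding gene RP11-600F24.7, on the same strand and starting 5961 bases away by the coordinates of the count table, had 238 and 253 counts in PRMT9 shRNA libraries, against 67 and 50 in control shRNA libraries, and rose with a log2 fold change of 1.92 (SE 0.15, edgeR adjusted p = 4.84e-09). TRMT61A, a tRNA methyltransferase subunit, was not called changed (-0.07). The kinase gene MARK3 and the translation initiation factor gene EIF5 fell by 0.26 and by 0.47 on the log2 scale. Around GATM, SHF rose with a log2 fold change of 1.82 at a low level of 1.88 ± 0.0943 CPM in PRMT9 shRNA libraries and 0.531 ± 0.0968 CPM in control shRNA libraries (SD, n = 2 each). By the coordinates of the count table, SPATA5L1 starts 4 bases from GATM, on the opposite strand and facing away. SPATA5L1 fell by 0.17 on the log2 scale, while GATM rose by 0.54. The call of SPATA5L1 was lost with DESeq2 (adjusted p = 0.166), and SORD and BLOC1S6 were not called. Around GAMT, NDUFS7 and DAZAP1 fell by 0.41 and by 0.53, RPS15 rose by 0.20, and AC005329.7 was not called.

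**Figure D4:**
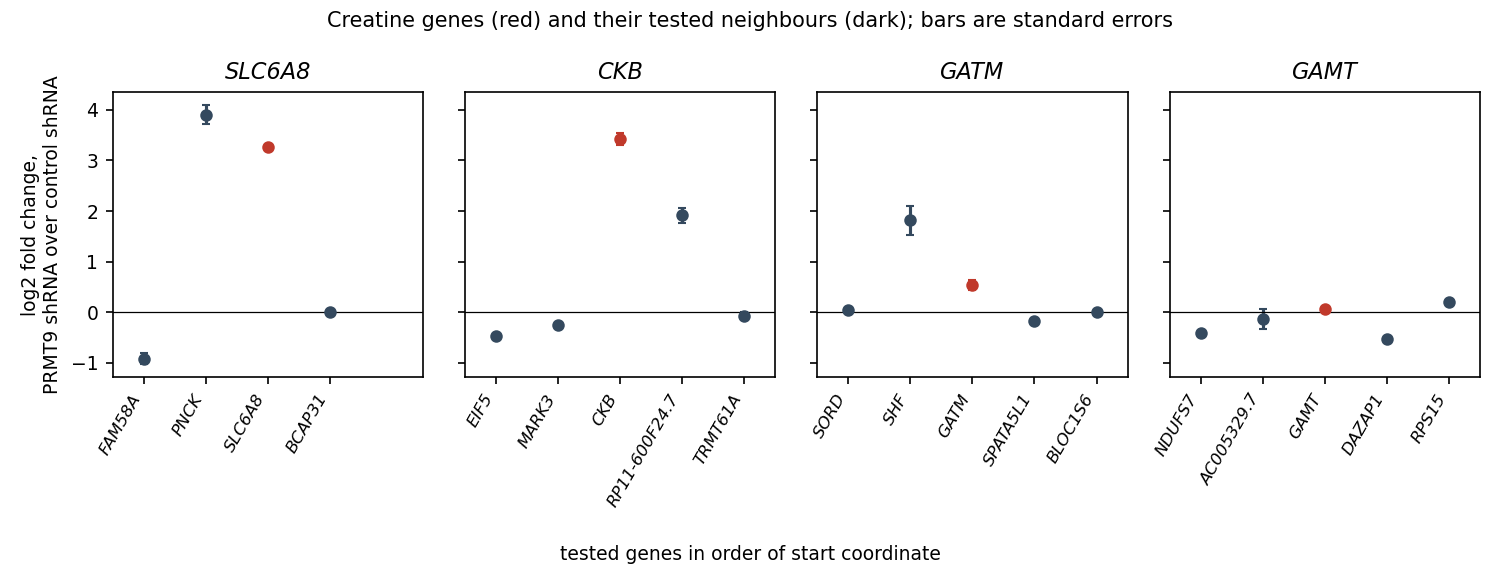
Log2 fold change (PRMT9 shRNA over control shRNA) with its standard error for the 4 tested creatine genes (red) and their nearest tested neighbours named in the text (dark), in order of start coordinate. PNCK at 3.91 lies beside SLC6A8, while BCAP31 on its other side is at -0.00.

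The genes most like SLC6A8 and CKB over the 4 libraries were found by the distance between centred log2 CPM profiles, among 8768 candidates averaging at least 10 CPM. With 4 libraries in 2 groups this distance mostly reflects the size of the fold change. For SLC6A8 they were OAS1, OAS3 and IFIT2, which are interferon-induced genes, SPP1, which encodes osteopontin, and AGXT, an aminotransferase. For CKB they were IFIT2, OAS3, SPP1, the histone gene HIST1H2BD and OAS1. The nearest to SLC6A8 was OAS1 (distance 0.0888), with 59.5 ± 1.72 CPM in PRMT9 shRNA libraries and 6.42 ± 0.101 CPM in control shRNA libraries (SD, n = 2 each). SLC6A8 and CKB lay 0.139 apart, and 2 candidates were closer to SLC6A8 than CKB was. On log2(RPKM + 1), 1 of the 5 genes was kept for SLC6A8 and 1 for CKB.

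Genes around the pathway were listed by role, and their calls are counted beside the 33.4% called higher and 34.5% called lower of all tested genes. Of 16 tested genes listed for arginine and glycine supply, 13 fell and 2 rose (median log2 fold change -0.27, against 0.00096 over all tested genes). The list also holds genes of glycine breakdown (GCSH and DLD) and of ornithine (OAT and SLC25A15). The counts therefore do not measure supply to GATM. SLC7A1, the main cationic amino acid carrier, had 117 ± 2.98 CPM in PRMT9 shRNA libraries and 234 ± 1.27 CPM in control shRNA libraries (0.500-fold, 95% interval 0.480 to 0.520). SLC3A2, the heavy chain of several amino acid exchangers, fell by 1.06, and the mitochondrial ornithine carrier SLC25A15 fell by 0.76, while SLC7A7 rose by 0.81 on the log2 scale. Of 12 tested genes listed for the methyl donor cycle, 8 fell and 2 rose (median -0.43, background as above). The list also holds genes that use S-adenosylmethionine, as GAMT does (PEMT and GNMT), or that draw on the cycle (CBS). These counts therefore do not measure the methyl supply to GAMT. Methionine synthase MTR fell by 0.61, its reductase MTRR by 0.53 and the phospholipid methyltransferase gene PEMT by 0.90 on the log2 scale.

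Of 18 other carriers of the SLC6 family, 3 were tested. The taurine transporter SLC6A6 had 26.9 ± 0.971 CPM in PRMT9 shRNA libraries and 38.9 ± 2.67 CPM in control shRNA libraries (SD, n = 2 each) and fell by 0.53 on the log2 scale. The glycine transporter SLC6A9 fell by 2.07 and SLC6A11 rose by 1.90, both below 1 CPM, and these 2 were named after their values were seen.

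Of 12 tested kinases of other phosphate transfer, 6 fell and 3 rose (median -0.30), where 34.5% of all tested genes were called lower and 33.4% higher. AK4, a mitochondrial adenylate kinase, had 36.5 ± 1.43 CPM in PRMT9 shRNA libraries and 9.49 ± 0.0963 CPM in control shRNA libraries (log2 fold change 1.95, SE 0.07, edgeR adjusted p = 1.57e-13). AK9 rose by 0.57, and NME1 and AK6 fell by 0.57 and by 0.40. Of 5 tested genes of mitochondrial ATP export, 3 fell and 2 rose (median -0.34, same background): VDAC1 and the ADP/ATP carrier genes SLC25A5 and SLC25A4 fell by 0.38, 0.38 and 0.34, and VDAC2 rose by 0.08. The call of VDAC2 was lost without the filter on low counts (edgeR adjusted p = 0.072) and against a fold of 1.5. It was also lost on log2(RPKM + 1) (limma adjusted p = 0.0778) and on log2(RPKM + 0.1) (limma adjusted p = 0.0753). Without control shRNA library 1, the log2 fold change of VDAC2 was 0.060. Of 5 tested subunits of the sodium pump, which keeps up the gradient that SLC6A8 uses, 3 fell and 1 rose (median -0.61, same background). The beta subunit gene ATP1B3 had 59.2 ± 0.325 CPM in PRMT9 shRNA libraries and 90.1 ± 3.18 CPM in control shRNA libraries (SD, n = 2 each) and fell by 0.61 on the log2 scale.

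**Figure D5:**
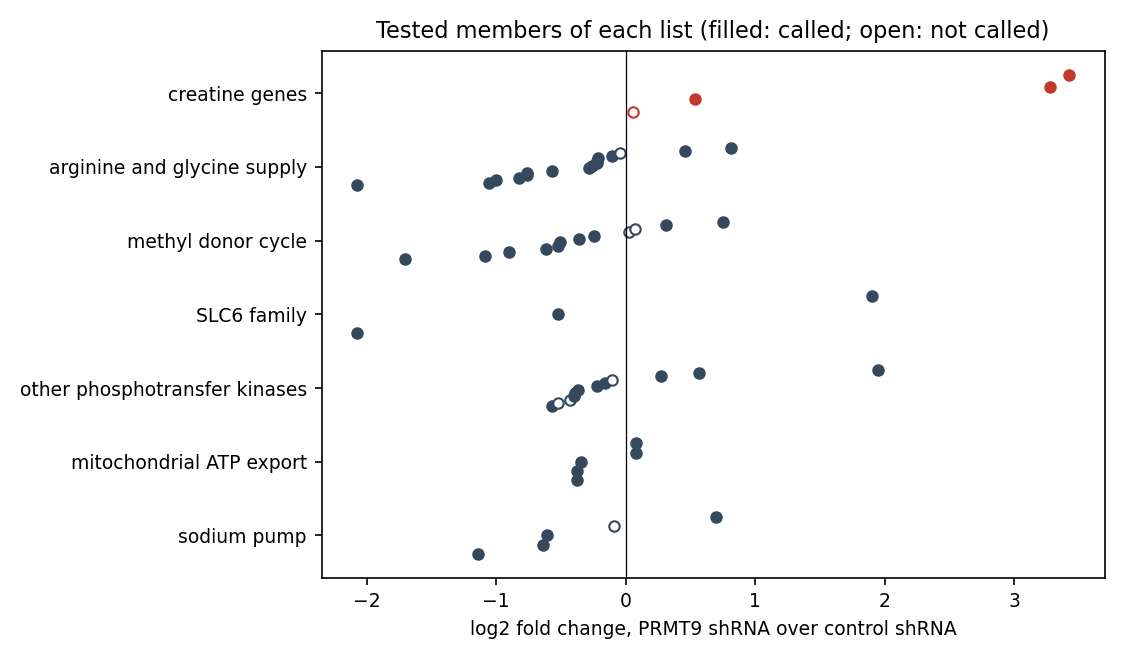
Log2 fold change (PRMT9 shRNA over control shRNA) of each tested member of the creatine genes and of 6 lists of related genes; filled points were called changed and open points were not. CKB and SLC6A8 lie at 3.42 and 3.28, and the highest of the other genes is AK4 at 1.95.

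Creatine kinases are known for their abundance in muscle and brain, so markers of those tissues and of epithelium were examined. Of 16 muscle markers, 2 were tested, and the summed level of the list was 3.0 to 3.2 CPM in PRMT9 shRNA libraries and 0.882 to 0.992 CPM in control shRNA libraries. The difference lay mostly in DES, which encodes desmin, with 1.99 ± 0.0658 CPM in PRMT9 shRNA libraries and 0.171 ± 0.00783 CPM in control shRNA libraries (named after its value was seen), while MYOD1, ACTC1, MYH2, MYL1 and MYL2 had 0 counts. The 12 neural and glial markers summed to 179 CPM in both PRMT9 shRNA libraries and to 138 to 141 CPM in control shRNA libraries, most of it MBP. Of 4 tested, 3 were called higher, where 33.4% of all tested genes were, and nothing is read from so few. GFAP, RBFOX3, AQP4 and STMN2 were among those with 0 counts. The 8 epithelial markers summed to 35.8 to 36.9 CPM in PRMT9 shRNA libraries and 27.5 to 27.7 CPM in control shRNA libraries, and EPCAM and KRT19 had 0 counts. Of the 8, KRT8 and KRT18 were tested and called higher, but KRT18 (log2 fold change 0.18) lost its call with DESeq2 (adjusted p = 0.132), without control shRNA library 1 (edgeR adjusted p = 0.0824) and without PRMT9 shRNA library 1 (edgeR adjusted p = 0.151). The 17 myeloid markers summed to 4336 to 4355 CPM in PRMT9 shRNA libraries and 3110 to 3117 CPM in control shRNA libraries. CSF1R rose by 1.86, ITGAM by 1.83, CSF3R by 1.18 and PTPRC by 0.84 on the log2 scale, and MPO, ELANE and FCGR1A were called lower. The part of these markers in the creatine results was not tested.

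GC content moved with the fold change over all genes. The median log2 fold change was 0.14 among the 1514 tested genes of GC content like that of SLC6A8 (5th to 95th percentile -0.86 to 1.91) and 0.11 among the 1514 like CKB and GAMT. CKB at 3.42 and GAMT at 0.06 lie in the same GC class. The part of GC content in the results was not tested.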

How the data were processed

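Per the labels, poly(A) RNA was sequenced in 4 libraries, and the submitters' processing notes list Trimmomatic 0.39, STAR 2.7.2a and SAMtools 1.10. The authors deposited raw read counts and RPKM per gene. In each library the deposited RPKM equalled the count per exon length and library total, divided by the TMM factor of that library over all genes in the count table. How reads were counted, with or without strand, and on which annotation, is not given in the sources used here.

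Genes were filtered with filterByExpr (minimum count 10, 15193 kept) and tested with edgeR 4.0.16 in R 4.3.3 (TMM scaling, quasi-likelihood test, Benjamini-Hochberg adjustment over all tested genes, threshold 0.05), and the script was tested on simulated data. CPM values are TMM-scaled, errors are SD over 2 libraries, and intervals and floors cover counting error and the spread between these libraries only. The creatine genes and the related lists were chosen with earlier results of these data known. Named genes are the members, PRMT9, SLC6A10P, CKM and SLC16A12, up to 4 called genes of each list with the largest change at a mean of 5 CPM or more, the 5 most like genes and the 2 nearest tested neighbours on each side. Some genes that this rule names are not reported here. CKMT2-AS1 was added after its values were seen. Shared 50-base windows and exon overlaps were read from GENCODE transcripts, and promoter windows from RefSeq. Libraries of a group differed by more than counting noise (chi-square per degree of freedom 1.60 for PRMT9 shRNA and 2.91 for control shRNA). Alternatives were other scalings and filters, DESeq2 1.42.0, limma 3.58.1, a test against a fold of 1.5, log2(RPKM + 1) and log2(RPKM + 0.1), the replicate number as a block, and each library left out.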

Additional observations from a re-analysis of the deposited data

How the results depend on the processing

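When 1 library was left out, the log2 fold change of SLC6A8 was 3.27 to 3.29 and that of CKB 3.36 to 3.50, a description of values on which both were chosen. GATM ranged from 0.46 to 0.63 and GAMT from 0.03 to 0.09 in those fits. Against a fold of 1.5, GATM was no longer called (log2 fold change 0.54, edgeR adjusted p = 1.00), calls over all genes fell to 2884 (main 10327) and calls among the related lists to 11 (main 45). With upper-quartile scaling, which moved the median of all genes by 0.09, GAMT was called (0.14, edgeR adjusted p = 0.0173). Without 1 library, calls over all genes ranged from 9230 to 9990, those of the related lists from 42 to 43, and those of creatine genes stayed at 3. On log2(RPKM + 1), 1 of 5 most like genes was kept for each of SLC6A8 and CKB. With the replicate number as a block there were 10307 calls, 10226 of them shared with the fit without it; the deviations of same-numbered libraries correlated at -0.0334 over 2 pairs, so the numbers were not taken to pair the libraries, and creatine calls were 3. Among the other named genes, 37 of 735 results were no longer called, mostly against a fold of 1.5; besides VDAC2, KRT18 and SPATA5L1, AK9 and MARK3 lost their call on log2(RPKM + 1) without a filter. Only uncalled neighbours near 0 changed sign. BCAP31 was at 0.0028 with RLE scaling, 0.088 with upper quartile, 0.032 with the 1 CPM filter, 0.0033 with DESeq2, 0.00020 with the block, and -0.043 to 0.044 without 1 library. TRMT61A was at 0.022 with upper quartile, AC005329.7 at -0.28 to 0.0023 without 1 library, and BLOC1S6 at -0.00011 without the filter, -9.3e-06 and -1.0e-05 on the RPKM scales, and -0.0021 to 0.014 without 1 library. The cause was not tested. Summing SLC6A8 with SLC6A10P changed nothing, since the pseudogene had 0 counts, and CKMT1A with CKMT1B gave no value, since both had 0. Depth limits CKB in control shRNA libraries and the genes at 0.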
